A study of Danio rerio with 8 samples.

Results

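The lipocalin genes apoda.2, ptgdsb and zgc:153154 (a prostaglandin D2 synthase copy now called ptgdsb.2) were described across whole zebrafish (Danio rerio) embryos kept for 72 h in high glucose (3 samples), high salt (2 samples) or control medium (3 samples). They were chosen by name for low levels in the treated libraries, with the counts already known, and are 3 of the 31953 genes of the deposited count table and 3 of the 20562 genes that passed the filter on low counts. The labels used here state no concentration, strain, clutch or number of embryos, and no treatment common to all groups beyond the 72 h of culture. They do not say whether replicates were separate dishes, so a p-value here covers the variation among these libraries alone, part of which may be technical. Libraries are named by group and by the suffix of their column (1m, 2f or 2m), whose meaning was not stated.

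Lipocalins are small, mostly secreted proteins folded into a cup that holds a fatty or otherwise water-repelling ligand. Apolipoprotein D, the mammalian counterpart of the apoda and apodb products, binds arachidonic acid and steroids and is made largely by glia in the mammalian brain. Lipocalin-type prostaglandin D synthase, the counterpart of the ptgdsa and ptgdsb products, converts a prostaglandin precursor to prostaglandin D2 in mammals, where the meninges and choroid plexus make it, and also carries retinoids.

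All 3 genes stood highest in control embryos and lowest, by mean, in high glucose. The mean level in controls was 35.8 times that in high glucose for apoda.2, 3.0 times for ptgdsb and 4.21 times for zgc:153154. Against high salt it was 7.06, 2.33 and 3.12 times. Together they took 0.259%, 0.427% and 0.318% of all counts in high glucose 1m, 2f and 2m, 0.537% and 0.336% in high salt 1m and 2m, then 1.84%, 1.05% and 0.9998% in the controls. Because the genes were chosen from these levels, the values are given as a description with no test. In whole embryos, fewer cells that make a transcript and less transcript per cell cannot be told apart.

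Library totals ran from 14650129 to 17317519 counts, so that 3 counts equalled 0.171 to 0.226 CPM (counts relative to the TMM-scaled library total), far below the 3 genes in every library. Over all genes, edgeR's quasi-likelihood test called 0% between high glucose and control at a Benjamini-Hochberg adjusted p of 0.05 (0 of 20562; 1227, or 5.97%, had an unadjusted p below 0.05, and DESeq2 called 89, all lower). It called 5.35% between high salt and control (605 or 2.94% higher, 496 or 2.41% lower) and 4.95% between high glucose and high salt (390 or 1.9% higher, 627 or 3.05% lower). Unadjusted p-values below 0.05 were held by 5318 genes (25.9%) between salt and control and by 5043 (24.5%) between glucose and salt. With the suffix as a block the counts of calls were 36, 2550 and 1857. With scaling by library size alone the salt split was 400 higher and 504 lower, and that scaling moved the median log2 difference between glucose and salt from 0.04 to 0.15 over all genes. High salt 2m had the lowest TMM scaling factor, 0.891, beside 0.960 to 1.047 in the others. Control 1m held the highest level of each of the 3 lipocalins but the lowest summed marker level of the 8 libraries for many tissues. These were glia (277.0 CPM), meninges and pericytes (113.7 CPM), neurons (173.8 CPM), lens (30.04 CPM) and oligodendrocytes (151.7 CPM). Ionocytes (92.07 CPM), macrophages and neutrophils (41.55 CPM) and cartilage and bone (522.2 CPM) were among them too. It was not the lowest for epidermis, muscle, liver, red cells or retinal pigment epithelium. Markers of epidermis, muscle, neurons, lens, blood and glia were present. Of the markers fixed for each tissue, mbpa and bglap were at 0 in all libraries, and the liver marker fabp10a reached at most 0.251 CPM while tfa reached 1407 CPM.

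The gene apoda.2 (chromosome 2, 37225004 to 37233532, plus strand, build GRCz11) is a member of the apolipoprotein D family. It reached 54.2, 129.4 and 74.9 CPM in high glucose 1m, 2f and 2m, and 699.3 and 175.1 CPM in high salt 1m and 2m. In the 1m, 2f and 2m controls it reached 5565, 1613 and 2083 CPM. No high glucose library overlapped a high salt library, and no library of either treatment overlapped a control library. The lowest control was 12.5 times the highest glucose library and 2.31 times the highest salt library. Among genes by level, apoda.2 ranked 8th in control 1m and 3487th in high glucose 1m.

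The log2 fold change of apoda.2 was -5.16 ± 0.69 (SE) for high glucose over control (means 86.2 ± 38.9 and 3087 ± 2159 CPM, SD, n = 3 each). For high salt over control it was -2.82 ± 0.73 (mean 437.2 ± 370.7 CPM in salt, n = 2), and for high glucose over high salt -2.34 ± 0.65. The salt libraries lay 3.99-fold apart. Without salt 1m the change in salt over control was -4.12, without salt 2m -2.13 and without control 1m -2.07; leaving out the pair control 1m and salt 2m gave -1.38. Glucose over salt was -1.05 without salt 1m and -3.04 without salt 2m. For glucose over control, leaving out control 1m gave -4.42.

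The gene ptgdsb (chromosome 24, 16882891 to 16884955, minus strand), now called ptgdsb.1, had the highest mean RPKM (CPM per kilobase of the deposited gene length) of the 12 lipocalin genes matched, in every group. It reached 2277, 3614 and 2824 CPM in high glucose 1m, 2f and 2m, and 4238 and 3259 CPM in high salt 1m and 2m. In the 1m, 2f and 2m controls it reached 12115, 7454 and 6582 CPM. In control 1m it was the 2nd most abundant of all genes and took 1.16% of the counts; in controls 2f and 2m it ranked 4th, and in the treated libraries between 10th and 33rd. Both treatments lay below every control, while high glucose and high salt overlapped.

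For ptgdsb the log2 fold change was -1.59 ± 0.29 for high glucose over control (2905 ± 672 and 8717 ± 2975 CPM, SD, n = 3 each). It was -1.22 ± 0.33 for high salt over control (3749 ± 693 CPM in salt, n = 2) and -0.37 ± 0.31 for high glucose over high salt. Without control 1m and salt 2m the salt value was -0.71.

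The copy zgc:153154 (chromosome 24, 16877092 to 16884954, minus strand) gave 232.5, 360.9 and 234.4 CPM in high glucose 1m, 2f and 2m, and 402.6 and 342.0 CPM in high salt 1m and 2m. In the 1m, 2f and 2m controls it gave 1494, 1097 and 894.6 CPM. The order of groups was that of ptgdsb, with both treatments below every control and overlapping each other. The log2 fold change was -2.07 ± 0.26 for high glucose over control (275.9 ± 73.6 and 1162 ± 305 CPM, SD, n = 3 each), -1.64 ± 0.29 for high salt over control (372.3 ± 42.8 CPM in salt, n = 2) and -0.43 ± 0.27 for high glucose over high salt. For comparison, 7.67% of all tested genes had every glucose library below every control, 20.6% had both salt libraries below every control and 21.2% had every glucose library below both salt libraries; as the 3 genes were chosen from these contrasts, nothing is read from their standing among them.

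**Figure D1:**
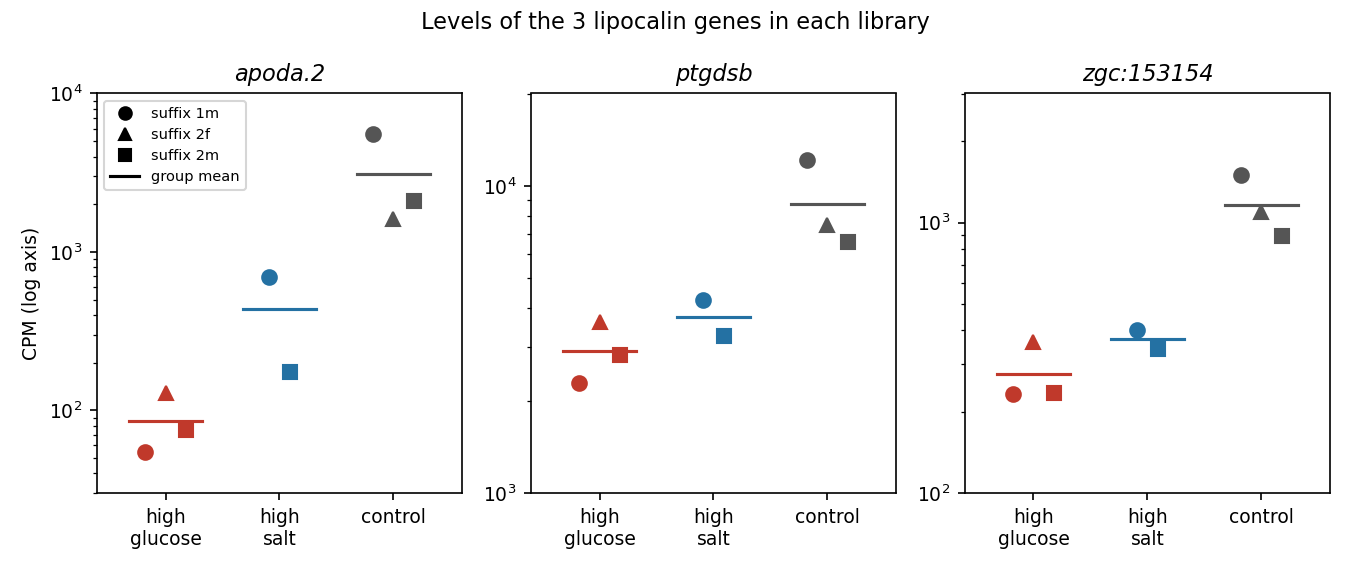
CPM on log axes (each panel with its own range) of apoda.2, ptgdsb and zgc:153154 in every library, with high glucose, high salt and control from left to right, 1 symbol per library shaped by suffix and a bar at each group's mean. All treated libraries lie below all controls, and for apoda.2 alone the 3 glucose libraries (at most 129.4 CPM) also lie below both salt libraries (at least 175.1 CPM).

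Compared within a suffix, each treated library was lower than its control for all 3 genes. Any other pairing would give the same, as every treated library lay below every control, so only the sizes are described. High glucose over control gave log2 differences of -6.68, -3.64 and -4.80 for apoda.2 in suffix 1m, 2f and 2m, -2.41, -1.04 and -1.22 for ptgdsb, and -2.68, -1.60 and -1.93 for zgc:153154. The 1m pair differed most for each gene. High salt over control gave -2.99 and -3.57 for apoda.2 in suffix 1m and 2m, -1.51 and -1.01 for ptgdsb, and -1.89 and -1.39 for zgc:153154. Pooled over the groups, suffix 2 over suffix 1m libraries differed by -0.98 ± 0.46 for apoda.2, -0.24 ± 0.25 for ptgdsb and -0.17 ± 0.21 for zgc:153154 (log2 ± SE, group as a term in the model, described without a test). These pooled values mix opposite directions. For each of the 3 genes, the 1m library was the highest in control and in high salt but the lowest in high glucose.

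The 3 genes also varied together within groups. Control 1m was the highest control for each, glucose 2f the highest glucose library and salt 1m the higher salt library. On the log2 CPM scale over the 8 libraries, Pearson's r was 0.97 between apoda.2 and ptgdsb, 0.96 between apoda.2 and zgc:153154 and 0.98 between the ptgdsb copies. After each group's mean had been taken out it was 0.88, 0.77 and 0.93. These are descriptions of genes chosen for a shared pattern, and the points share library and depth. The salt deviations of each gene are mirror images. The ptgdsb copies also overlap on the same strand, as described below, and the part of shared reads in their r was not tested.

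The ptgdsb copies overlap in the annotation used. Of the 2065 bases spanned by ptgdsb, 2064 lie inside the span of zgc:153154 on the same strand, whereas RefSeq's GRCz12tu assembly lists ptgdsb.2 and ptgdsb.1 as neighbouring genes with no overlap and no gene between them. The sources used here do not give how reads in the shared stretch were counted, so the split of reads between the copies is uncertain. On chromosome 2, apoda.1 lies within apoda.2 on the opposite strand. The use of strand in counting is not stated, so reads in any stretch the pair shares may have been assigned to either gene or to neither. The deposited levels were unlike: apoda.1 ran from 1.37 to 10.6 CPM, with its lowest value in control 1m, where apoda.2 was highest. It was low in every 1m library (2.51, 1.43 and 1.37 CPM in high glucose, high salt and control) beside 5.675 to 10.6 CPM in the suffix 2 libraries.

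**Figure D2:**
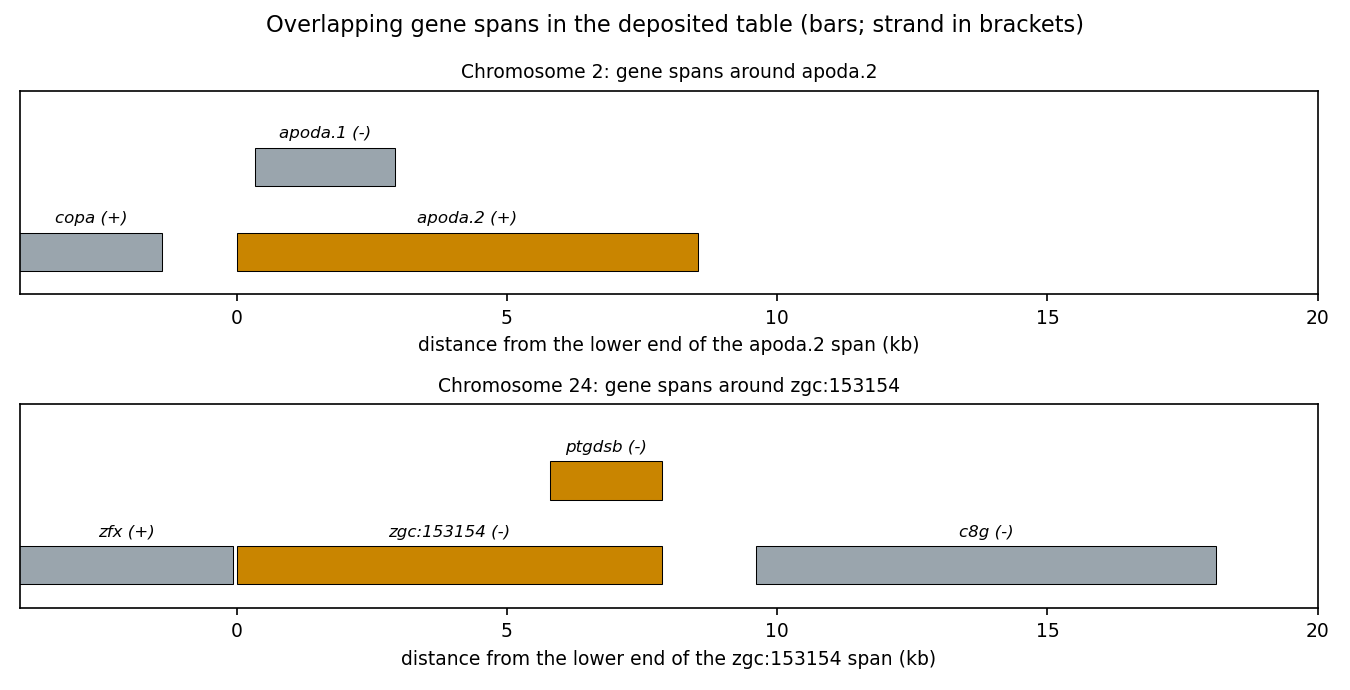
Spans of apoda.2 and zgc:153154 with neighbouring genes as bars, as distance in kb from the lower end of each span, drawn to scale with the strand in brackets; overlapping genes are raised to a second row and genes are clipped at the panel edges. The whole of apoda.1 lies within apoda.2, and all but 1 base of ptgdsb lies within zgc:153154.

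The balance between the copies differed between treatments and control. The ratio of ptgdsb to zgc:153154 counts was 9.80, 10.0 and 12.1 in high glucose 1m, 2f and 2m, 10.5 and 9.53 in high salt 1m and 2m, then 8.11, 6.80 and 7.36 in the controls 1m, 2f and 2m. Every treated library had a higher ratio than every control: zgc:153154 was lower by a larger factor than ptgdsb. The part of read assignment in the shared stretch was not tested.

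Per length, the balance of apoda.2 and ptgdsb differed too. In RPKM, apoda.2 stood at 0.0223, 0.0336 and 0.0249 of ptgdsb in high glucose 1m, 2f and 2m, at 0.155 and 0.0504 in high salt 1m and 2m, then at 0.430, 0.203 and 0.297 in the controls 1m, 2f and 2m. By mean RPKM the order in high glucose was ptgdsb (2823), zgc:153154 (196.9) and apoda.2 (78.5), and in high salt ptgdsb (3643), apoda.2 (398.2) and zgc:153154 (265.7). In controls it was ptgdsb (8471), apoda.2 (2812) and zgc:153154 (829.3). In salt the levels of apoda.2 (159.5 and 636.9) and zgc:153154 (244.1 and 287.3) overlapped, so their order there is not beyond the spread.

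**Figure D3:**
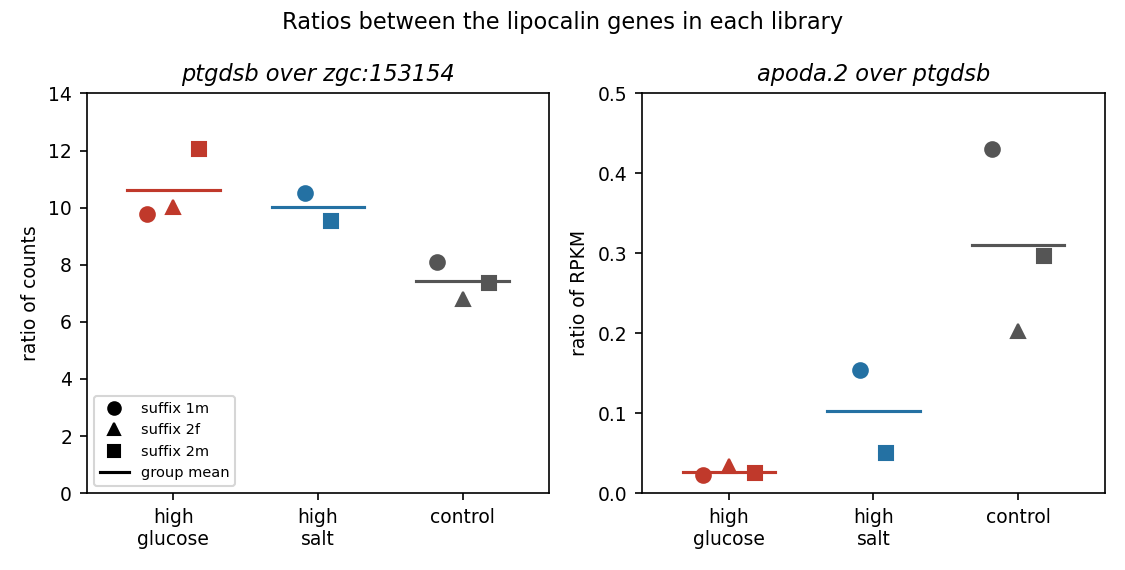
Left, the ratio of ptgdsb to zgc:153154 counts; right, the ratio of apoda.2 to ptgdsb in RPKM; 1 symbol per library, bars at group means, high glucose, high salt and control from left to right. The copy ratio is at least 9.53 in the treated libraries and at most 8.11 in controls, while apoda.2 is at most 0.155 of ptgdsb in treated libraries and at least 0.203 in controls.

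Neighbouring genes were set beside the lipocalins. The transcription factor gene zfx, whose end lies 57 bases from the zgc:153154 span on the opposite strand, was at 59.0, 55.9 and 63.5 CPM in high glucose 1m, 2f and 2m, at 160.4 and 245.9 CPM in high salt 1m and 2m, then at 69.0, 54.4 and 59.4 CPM in the controls 1m, 2f and 2m. It rose in salt by 1.74 ± 0.21 on the log2 scale (edgeR's quasi-likelihood test, adjusted p = 0.0058, higher in 2 of 2 libraries), the direction opposite to that of zgc:153154, and did not pass in glucose (-0.04 ± 0.19, adjusted p = 0.97). It passed in salt in 13 of 13 alternative settings (adjusted p up to 0.044). The next gene on the other side, c8g, itself a lipocalin and a subunit of complement component C8, differed by -0.17 ± 0.26 in glucose and -0.82 ± 0.30 in salt (adjusted p = 0.87 and 0.13). Next to it, msrb2 was at 10.4 ± 6.11, 2.02 ± 0.61 and 5.62 ± 3.60 CPM in high glucose, high salt and control (mean ± SD), and beyond zfx, eif2s3 was at 272.6 ± 8.63, 328.0 ± 74.8 and 222.1 ± 23.9 CPM. Beside apoda.2, the coatomer gene copa differed by 0.02 ± 0.17 in glucose and 0.52 ± 0.19 in salt (adjusted p = 0.98 and 0.13). The other neighbours of apoda.2 were at 55.2 ± 2.29, 63.0 ± 0.93 and 64.9 ± 9.12 CPM in high glucose, high salt and control for pex19, 53.2 ± 4.41, 67.4 ± 7.12 and 57.2 ± 6.25 CPM for sec62, and 1.25 ± 1.22, 0.25 ± 0.07 and 0.94 ± 0.50 CPM for samd7. None of msrb2, eif2s3, pex19, sec62 and samd7 passed in any comparison.

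Of 9 further family members matched by symbol, all tested, none passed the edgeR test in any of the 3 comparisons (1, 1 and 0 with an unadjusted p below 0.05 for glucose over control, salt over control and glucose over salt; DESeq2 called 1, 0 and 0). Over all genes 0%, 5.35% and 4.95% passed. Their median log2 difference was -0.13 for glucose over control (6 of 9 below 0), where all tested genes had a median of 0. It was -0.62 for salt over control (9 of 9 below 0 with TMM, 8 of 9 with DESeq2 scaling), where all genes had -0.04. That salt median was -0.09 without control 1m, -0.39 without control 2m and -0.49 without salt 1m (6 of 9 below 0 in each), and -0.19 without control 1m and salt 2m (5 of 9 below 0). Control 1m held the highest level of 6 of the 9.

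Another apolipoprotein D gene, apodb, stood at 74.7, 100.4 and 81.8 CPM in high glucose 1m, 2f and 2m, 149.3 and 156.6 CPM in high salt 1m and 2m, then 407.5, 142.4 and 157.4 CPM in the controls 1m, 2f and 2m. All glucose libraries lay below all controls and below both salt libraries, as in 7.67% and 21.2% of all tested genes. The salt libraries overlapped the controls. The log2 difference of -1.46 ± 0.36 in glucose did not pass by edgeR (adjusted p = 0.65; 0.022 to 0.996 over 13 alternatives, below the threshold with DESeq2 alone), and without control 1m it was -0.81. In salt it was -0.62 ± 0.41, and 0.03 without control 1m. For glucose over salt it was -0.84 ± 0.40 and did not pass by edgeR (adjusted p = 0.23). There it passed in 1 of 13 alternatives, the edgeR fit without control 1m (adjusted p = 0.018).

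The opposite-strand gene apoda.1 differed by 0.41 ± 0.75 in glucose and -0.51 ± 0.86 in salt. The third synthase copy ptgdsa, at 8.38 to 25.9 CPM, differed by -0.75 ± 0.37 in glucose and -0.63 ± 0.42 in salt. For rbp4, the plasma retinol carrier, the differences were -0.13 ± 0.32 and -0.62 ± 0.37, and for its relative rbp4l -0.48 ± 0.50 and -0.03 ± 0.55.

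**Figure D4:**
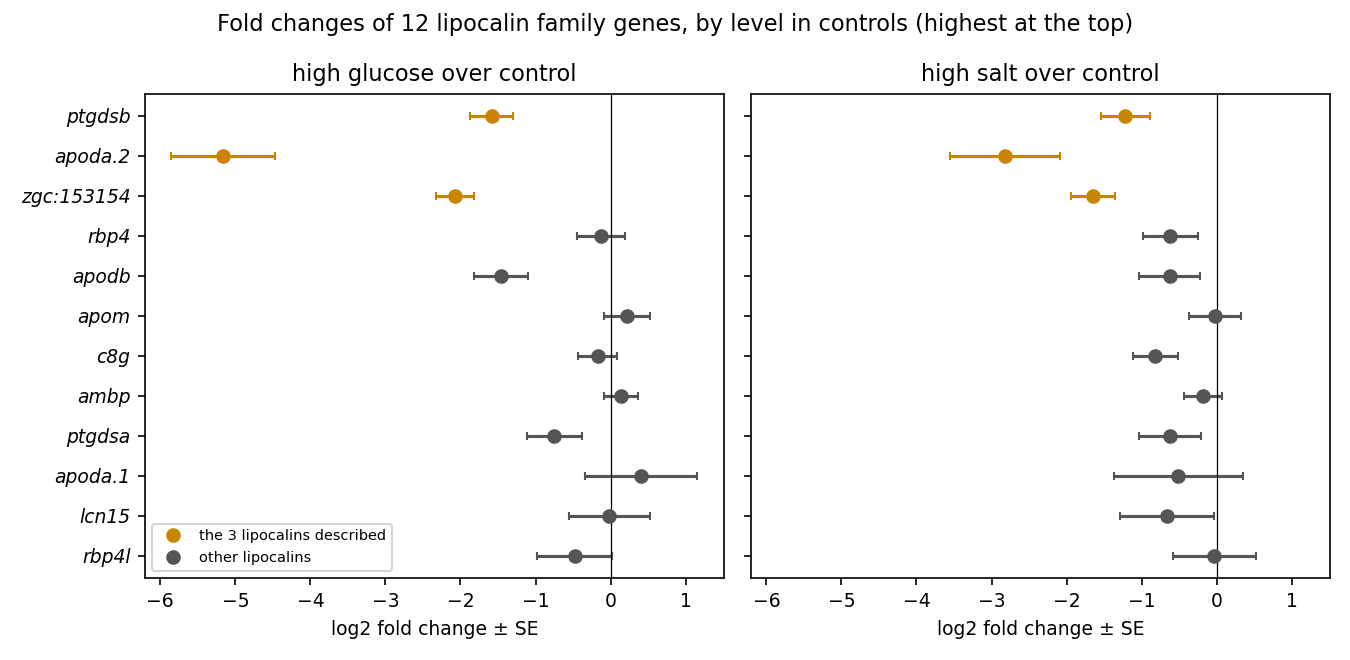
Log2 fold changes (points, with bars of 1 SE) of 12 lipocalin family genes for high glucose over control (left) and high salt over control (right), ordered by mean RPKM in controls with the highest at the top. The orange genes apoda.2, ptgdsb and zgc:153154 were chosen for low values in these contrasts; of the others, apodb lies lowest in glucose (-1.46) and none passed the edgeR test.

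Genes of prostaglandin synthesis, transport and reception, with ptgdsa counted here and among the lipocalins above, were set beside ptgdsb. Of 33 matched by symbol, 28 were tested. Between glucose and control none passed by edgeR (9 of 28 with an unadjusted p below 0.05, beside 5.97% of all genes), and DESeq2 called 1. Below 0 were 22 of 28, with a median of -0.46, beside 10282 of 20562 and a median of 0 over all genes. Without control 1m, the highest library for 10 of the 33 genes, that median was -0.30 (22 of 28 below 0). Between salt and control 2 of 28 rose and none fell, beside 2.94% and 2.41% of all genes, with a median of -0.28. The suffix block gave 2 higher and 1 lower and DESeq2 4 higher and 1 lower. The salt median did not hold its direction: it was -0.01 without control 1m (14 of 28 below 0), -0.07 without salt 1m and 0.07 without control 1m and salt 2m (13 of 28 below 0). Between glucose and salt 2 were lower in glucose and none higher, beside 3.05% and 1.9% of all genes, with a median of -0.26. In salt over control and in glucose over salt, 8 of 28 each had an unadjusted p below 0.05 by edgeR. These stood beside 25.9% and 24.5% of all genes. No symbol for the other prostaglandin D synthase gene (hpgds) or for prostaglandin D receptors (ptgdr, ptgdr2) was matched.

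The 2 genes that rose in salt encode receptors for prostaglandin E2. The level of ptger2a was 4.17, 5.77 and 4.64 CPM in high glucose 1m, 2f and 2m, 9.24 and 13.7 CPM in high salt 1m and 2m, then 5.72, 3.84 and 4.30 CPM in the controls 1m, 2f and 2m. It rose by 1.31 ± 0.32 (adjusted p = 0.046). The level of ptger4b was 3.995, 4.14 and 4.20 CPM in high glucose 1m, 2f and 2m, 6.86 and 17.96 CPM in high salt 1m and 2m, then 3.06, 4.70 and 4.07 CPM in the controls 1m, 2f and 2m. It rose by 1.65 ± 0.40 (adjusted p = 0.046). Both passed in only a part of the 13 alternatives (5 and 4, adjusted p up to 0.29 and 0.37). With library size alone, and without control 2f, control 2m, salt 2m or any 1 glucose library, neither passed; ptger4b also missed the threshold without control 1m, and its change was 0.80 without salt 2m.

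Lower in glucose than in salt were ptges, the inducible prostaglandin E synthase gene (5.82, 3.76 and 6.08 CPM in high glucose 1m, 2f and 2m, against 12.2 and 19.7 CPM in high salt 1m and 2m), and cbr1l, a carbonyl reductase gene (95.9, 100 and 98.7 CPM against 193.5 and 317.8 CPM). The controls 1m, 2f and 2m had 8.26, 5.43 and 7.97 CPM of ptges and 162.9, 108.9 and 128.4 CPM of cbr1l; they lay below both salt libraries for each gene, overlapped glucose for ptges and lay above it for cbr1l. Log2 differences of glucose over salt were -1.61 ± 0.34 and -1.38 ± 0.24 (adjusted p = 0.030 and 0.019 by edgeR). Salt over control was 1.14 ± 0.33 and 0.94 ± 0.24 (adjusted p = 0.074 and 0.053). Without salt 2m or any 1 glucose library neither passed between glucose and salt (adjusted p up to 0.23 and 0.16).

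Cyclooxygenase genes, which make the precursor that the synthases use, did not pass in glucose or salt against control. For ptgs1 the log2 differences were -0.32 ± 0.20 in glucose and 0.46 ± 0.22 in salt, for ptgs2a -0.61 ± 0.18 and -0.31 ± 0.21, and for ptgs2b -0.95 ± 0.42 and 0.41 ± 0.45. Chosen after its values were seen, fam213b (prxl2b), a gene for a prostaglandin F synthase, was at 242.1, 248.0 and 180.2 CPM in high glucose 1m, 2f and 2m, at 256.7 and 148.4 CPM in high salt 1m and 2m, then at 1292, 391.2 and 330.1 CPM in the controls 1m, 2f and 2m. Both treatments lay below every control and control 1m far above the rest, while the salt libraries lay on either side of the glucose range. It did not pass in glucose or salt (adjusted p = 0.76 and 0.094).

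Intracellular lipid-binding proteins, which carry fatty acids and retinoids inside cells, had no member past the edgeR test among 18 tested in any comparison. In each, 3 of 18 had an unadjusted p below 0.05, beside 5.97%, 25.9% and 24.5% of all genes. DESeq2 called 0, 2 and 1 of them for glucose over control, salt over control and glucose over salt. Their median was 0.05 for glucose over control, but 0.28 without control 1m, -0.22 without control 2f and -0.03 without glucose 2m, so it had no steady direction. It was 0.34 for salt over control and 0.21 without control 2f. The glial gene fabp7a differed by 0.81 ± 0.62 in glucose and -0.50 ± 0.70 in salt.

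Among 17954 protein-coding genes averaging 1 CPM or more, the genes whose log2 CPM followed each lipocalin most closely over the 8 libraries were named by Pearson's r, as a description. For apoda.2 they were rasef (0.98), the cell cycle inhibitor gene cdkn1a (0.98), pdzd7a (0.97), the glutaminase gene gls2b (0.97) and dennd6aa (0.96). For ptgdsb they were rasef (0.98), the collagen galactosyltransferase gene colgalt1 (0.98), tex264a (0.98), the elongation factor gene eef1a1b (0.975) and fth1a (0.97), which encodes the ferritin heavy chain. For zgc:153154 they were rgra (0.98), a retinal G protein-coupled receptor gene, dennd6aa (0.97), the opsin gene opn5 (0.97), rasef (0.97) and dmxl2 (0.97). An r above 0.9 was reached by 49, 81 and 59 genes for apoda.2, ptgdsb and zgc:153154 (0.273%, 0.451% and 0.329%). The 12 genes named were each highest in control 1m, and in each the treated libraries lay below the controls. Both follow from choosing genes by likeness to lipocalins with that pattern, so nothing is read from the count.

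The gene rasef, which encodes a Rab family GTPase with EF-hand motifs, was among the closest for all 3. It was at 3.88, 4.58 and 3.63 CPM in high glucose 1m, 2f and 2m, 8.90 and 5.66 CPM in high salt 1m and 2m, then 32.8, 15.3 and 14.2 CPM in the controls 1m, 2f and 2m. As in apoda.2, salt 1m lay above salt 2m and both lay above every glucose library. The most abundant of the 12, fth1a, was at 852.5, 891.5 and 894.0 CPM in high glucose, 1111 and 863.9 CPM in high salt and 2453, 1586 and 1637 CPM in control. The salt libraries lay to either side of the highest glucose library, and all treated libraries below every control. Likeness in shape did not mean likeness in size: from the highest to the lowest library log2 CPM spanned 6.68 for apoda.2, 2.41 for ptgdsb, 2.68 for zgc:153154, 3.13 for rasef and 0.70 for colgalt1.

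**Figure D5:**
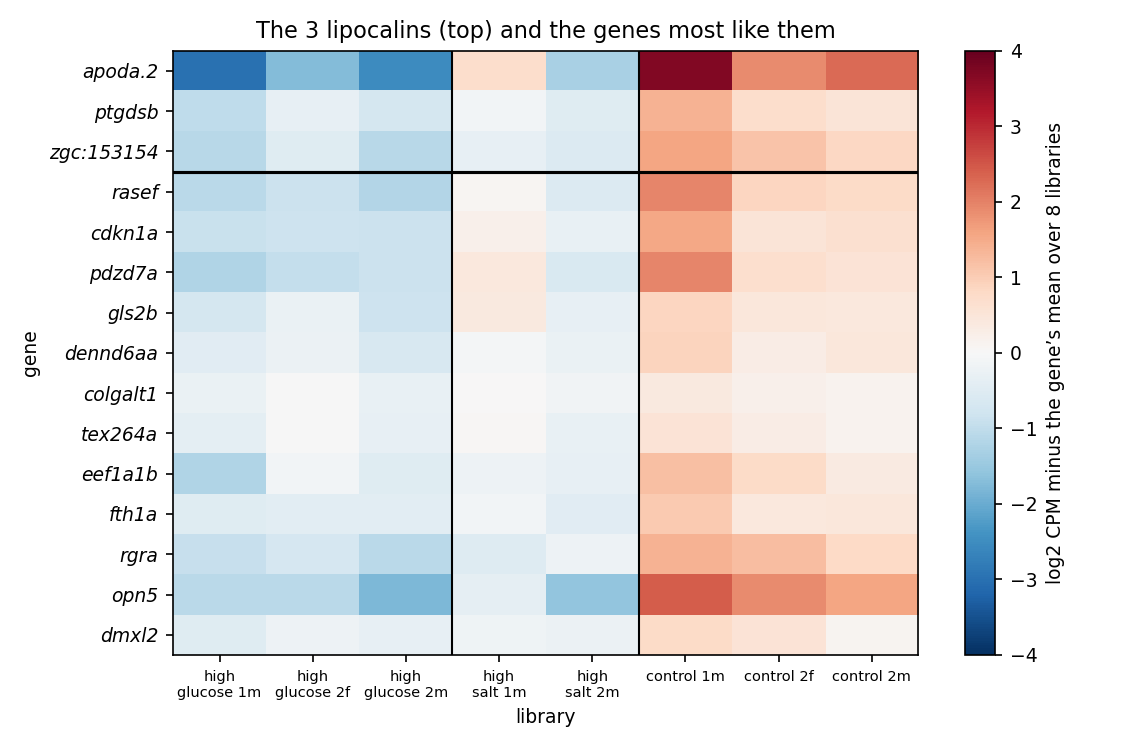
Heat map of log2 CPM minus each gene's mean over the 8 libraries (columns: high glucose, high salt, control, each split by suffix), with apoda.2, ptgdsb and zgc:153154 in the top rows and the 12 genes with the highest r below the line. Blue is below and red above the gene's mean; control 1m is the reddest column in every row, and apoda.2 has the widest span (6.68).

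Marker levels of tissues that could make these transcripts were set beside them. Summed over 6 of 6 glial markers, 659.2 to 1006 CPM were found in high glucose, 553.5 to 768.0 CPM in high salt and 277.0 to 741.9 CPM in control. Summed over 4 of 5 markers of meninges and pericytes (pdgfrb was not matched), the ranges were 211.1 to 258.1, 174.4 to 288.5 and 113.7 to 232.1 CPM. Over 5 of 5 markers of the retinal pigment epithelium they were 29.7 to 45.1, 30.02 to 50.1 and 42.6 to 57.7 CPM. Of the 5, rgra, named above for its likeness to zgc:153154, alone fell in salt by edgeR (-1.51 log2, adjusted p = 0.021). In glucose rgra did not pass (-2.06 ± 0.24 log2, adjusted p = 0.087), and it was the only 1 of the 5 below 0. It held 19.5 to 29.8 CPM of the control sums, so the sum partly followed a gene picked for likeness. The ranges of glia, of meninges and pericytes and of the retinal pigment epithelium overlapped between each treatment and control, and control 1m gave the lowest control value of each. In glucose over control, 0 of 6 glial markers and 0 of 4 markers of meninges and pericytes were below 0. In salt over control 1 of 6 and 1 of 4 were. None of these markers passed the edgeR test in either comparison. Over 5 of 5 oligodendrocyte markers (mbpa at 0) they were 335.4 to 345.6, 242.1 to 339.7 and 151.7 to 246.4 CPM, a sum carried by plp1a (298.1 to 301.8 CPM in high glucose, 213.8 to 302.1 CPM in high salt, 133.1 to 209.4 CPM in control; 0.73 in glucose over control, adjusted p = 0.76). Over 6 of 6 epidermal markers high glucose (20644 to 21463 CPM) overlapped control (20522 to 24077 CPM), while high salt (15289 to 18546 CPM) lay below it. That sum was carried by the keratin gene krt4, with means of 17744, 14522 and 18176 CPM in high glucose, high salt and control. In salt over control krt4 did not pass the edgeR test (-0.32 log2, adjusted p = 0.39). The keratin gene cyt1 was the 1 of the 6 that fell by that test (-1.20 log2, adjusted p = 0.017). Of the 6, 4 were below 0 in salt, while evpla and krt91 were at 0.30 and 0.04. The spans of krt91 and cyt1 overlap on the same strand, so the split of reads between them is uncertain. The part of these tissues in the levels of the 3 lipocalins was not tested.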

How the data were processed

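The authors deposited 1 table of whole-number counts for 8 libraries; its gene lengths gave RPKM. Per the submitters' processing notes, edgeR 3.22.5, DESeq2, featureCounts 1.5.0-p3, HISAT2 2.0.5 and StringTie 1.3.3b were used, and the build was GRCz11. Neither their order nor the handling of strand and shared reads is stated. The labels' protocol describes array hybridization, but the values are sequencing counts. Columns were tied to groups by their first letter. Counts were fitted with edgeR 4.0.16 (R 4.3.3; TMM, filterByExpr, quasi-likelihood F-test, 5 residual degrees of freedom) over all libraries and 20562 genes, adjusted by Benjamini-Hochberg at 0.05; DESeq2 1.42.0 was an alternative. The fit was tested on simulated counts drawn separately for each library. These lacked the shared deviations of same-suffix libraries given below, so the test does not cover them. CPM use TMM-scaled totals; log2 CPM a prior count of 2. SE is the log2 fold change over the root of F. Levels are mean ± SD.

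The 3 genes, the gene lists and the likeness rule were chosen with earlier results of these data known. Named genes were the 3 lipocalins, 12 symbols fixed whatever their value, list members past the threshold, the nearest 2 neighbours on each side, and the 5 genes with the highest r; fam213b, plp1a and markers named with values fall outside this rule. Libraries of the same suffix deviated together (r of 0.47, 0.14 and 0.44 for glucose with control in suffix 1m, 2f and 2m; 0.36 and 0.33 for salt with control), and every same-suffix pair was above 0.1, so a fit with the suffix as a block was run as an alternative; all folds, SEs and p-values printed otherwise come from the fit without it. Control 2f was about as close to glucose 2m (0.13) and salt 2m (0.19) as to glucose 2f (0.14). The deviations of the 2 salt libraries from their group mean are mirror images. Control 1m therefore gave 0.36 with salt 1m and -0.36 with salt 2m, and the salt pairs are not separate evidence of pairing. Replicate numbers in the sample titles could not be tied to columns. No sequence was analysed here.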

Additional observations from a re-analysis of the deposited data

How the results depend on the processing

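Under 13 alternatives (DESeq2, library size alone, no count filter, the suffix as a replicate block, each library left out, and control 1m with high salt 2m left out), the log2 fold changes of apoda.2, ptgdsb and zgc:153154 were below 0 in all 13 for each of the 3 comparisons. Against control that sign could hardly change, as the genes were chosen for low treated levels and every treated library lay below every control. The same holds for apoda.2 in glucose over salt, where no library overlapped, so nothing is read from these signs. Leaving out 1 library, glucose over control ranged from -5.58 to -4.42 for apoda.2, -1.77 to -1.27 for ptgdsb and -2.32 to -1.85 for zgc:153154. Salt over control ranged from -4.12 to -2.07, -1.40 to -0.90 and -1.80 to -1.42, and glucose over salt from -3.04 to -1.05, -0.56 to -0.19 and -0.67 to -0.32. Without control 1m and high salt 2m, salt over control was -1.38 for apoda.2, -0.71 for ptgdsb and -1.29 for zgc:153154. The cause was not tested.

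Counts of called genes depended on the fit. With DESeq2 they were 89 for glucose over control, 2678 for salt over control and 2494 for glucose over salt; with the replicate block by suffix 36, 2550 and 1857. Without a count filter 16 were called in glucose, and without control 1m and high salt 2m 20 in glucose and 352 in salt. Leaving out 1 library gave 0 for glucose over control in all 8 fits. For salt over control it gave 50 (without salt 2m) to 2355 (without salt 1m), with 147 and 164 without control 2m and 2f, and 471, 215 and 343 without glucose 1m, 2f and 2m. For glucose over salt it gave 59 (without glucose 2f) to 2343 (without control 1m), with 65 without salt 2m, 72 and 198 without glucose 2m and 1m, 560 and 620 without control 2f and 2m, and 2094 without salt 1m.

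Of the other lipocalins, DESeq2 called 1 in glucose over control, and glucose over salt had 0 to 1 over the fits without 1 library. Of the prostanoid genes, DESeq2 called 1, 5 and 7 (glucose over control, salt over control, glucose over salt). Salt over control gave 0 with library size alone and without control 1m and high salt 2m, and 0 to 4 leaving out 1 library; glucose over salt gave 4 without a filter, 4 with the replicate block and 0 to 6 leaving out 1 library. Of the intracellular lipid-binding proteins, DESeq2 called 2 in salt over control and 1 in glucose over salt, the replicate block 2 and 1, and the fits without 1 library 0 to 1 in salt over control. With 2 salt libraries, a fit without 1 of them assumes that the other varies like the rest.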
